A study of Mus musculus with 20 samples.

Results

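Nobox, Figla, Lhx8, Sohlh1, Sohlh2 and Foxo3 are 6 mouse genes for transcription factors that act in the ovary while oocytes enter and leave the primordial follicle. They were chosen by name, with earlier results of these data known, as 6 of the 24411 gene symbols in the tables, and all 6 were found. B6CASTF1 hybrids gave 3 samples of zygotes in G1, 3 of zygotes in G2 and, as used here, 2 of 2-cell embryos in G2. C57BL/6J gave 3 samples each of MII eggs and of the same 3 later stages. All were titled WT and untreated, each sample was a batch of 10 to 15 eggs or embryos, and all eggs had been matured in culture for 12 hours after release from dbcAMP, an agent that holds oocytes before the meiotic divisions, and fertilized in vitro, with zygotes and embryos kept in KSOM medium. The age of the females and the direction of the B6CASTF1 cross are not given in the sources used here.

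NOBOX and LHX8 are homeodomain proteins, and FIGLA, SOHLH1 and SOHLH2 are basic helix-loop-helix (bHLH) proteins, which bind as pairs to a short DNA motif called the E-box. In the mouse ovary, loss of any of these stops or disturbs the forming or growth of follicles, and FIGLA switches on the zona pellucida genes. FOXO3 is a forkhead factor that keeps primordial oocytes dormant, and the kinase AKT, acting below the receptor KIT, removes it from the nucleus when the oocyte is activated. The RNA that a mature egg holds of such genes was made during growth, and most egg RNA is degraded by the 2-cell stage, when the embryo's own genome is switched on.

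Sohlh1 (chromosome 2, 25842995 to 25847248, minus strand, GRCm38) stood apart from the other members because its RNA was near 0 up to the G2 zygote and present in 2-cell embryos. The promoter windows of Sohlh1, Nobox and Lhx8 are shown because these genes changed in opposite directions at the 2-cell stage and the bHLH members of the group bind E-boxes. Each window runs from 250 bases before the start of transcription to 50 after it, from RefSeq on GRCm38.p6, on the strand of the gene, which is the minus strand for all 3. Capitals mark each E-box, CANNTG, searched on both strands, where every hit is the same site on either strand. The windows are chr2:25847199-25847498 for Sohlh1, chr6:43309505-43309804 for Nobox and chr3:154330511-154330810 for Lhx8.
Sohlh1: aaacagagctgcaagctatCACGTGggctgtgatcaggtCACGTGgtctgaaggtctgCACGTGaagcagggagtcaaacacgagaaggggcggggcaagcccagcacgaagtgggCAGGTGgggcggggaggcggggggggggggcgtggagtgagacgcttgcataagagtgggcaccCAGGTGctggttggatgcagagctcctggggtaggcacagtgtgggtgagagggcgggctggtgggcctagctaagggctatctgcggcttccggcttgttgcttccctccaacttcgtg
Nobox: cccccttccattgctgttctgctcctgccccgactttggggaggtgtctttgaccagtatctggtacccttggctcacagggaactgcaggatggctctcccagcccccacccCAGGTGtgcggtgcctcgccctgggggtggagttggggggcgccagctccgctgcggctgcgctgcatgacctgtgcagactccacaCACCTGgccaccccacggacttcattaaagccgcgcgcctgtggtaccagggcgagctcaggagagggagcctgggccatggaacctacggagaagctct
Lhx8: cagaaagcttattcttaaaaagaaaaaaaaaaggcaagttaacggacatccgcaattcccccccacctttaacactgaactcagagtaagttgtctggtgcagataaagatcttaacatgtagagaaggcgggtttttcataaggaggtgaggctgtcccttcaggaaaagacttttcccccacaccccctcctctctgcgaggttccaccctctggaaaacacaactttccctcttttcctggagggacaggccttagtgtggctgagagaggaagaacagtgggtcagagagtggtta

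The Sohlh1 window held 5 E-boxes, a number reached by 2.10% of 32851 RefSeq promoter windows of this length. Of these, 3 had the form CACGTG, a subset of CANNTG, with first bases at positions -231, -211 and -192 from the start, and 0.0883% of all windows held at least 3 such sites. The Nobox window held 2 E-boxes, a number reached by 39.6% of windows, and the Lhx8 window held 0. The window of Figla held 4 E-boxes, that of Sohlh2 held 1 and that of Foxo3 held 0, with 0 of the form CACGTG among them. The homeodomain motifs TAATTG and TAATTA and the forkhead motif GTAAACA had 0 matches in the 6 windows, on both strands, where TAATTG was found in 2628, TAATTA in 1738 and GTAAACA in 1199 of all windows. These matches describe letters in the windows and are not binding sites.

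The values are the authors' comparisons of consecutive stages, 1 fit per strain, and hold no value per sample. No depth can be given for a sample. The strains' mean normalized counts over all genes summed to 20428100 in B6CASTF1 and 19348100 in C57BL/6J. Levels given here are approximate mean normalized counts per stage, worked out from the strain's mean and its fold changes, and each strain was normalized on its own. A member counted as changed where the authors' adjusted p (DESeq2) was under 0.05. The SE of the members' log2 fold changes ran between 0.28 and 2.39 in B6CASTF1 and between 0.51 and 2.54 in C57BL/6J, so only large changes of the weaker members could pass. Nothing in the labels ties the samples of a group to different females or culture days, so a p-value here reflects no more than the spread between samples, which may be technical. Normalized counts are shares of a library primed with oligo-dT, in which less RNA per embryo, a smaller share of the RNA and a shorter poly(A) tail cannot be told apart.

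RNA of egg markers was present in every group, a check that does not test the zygote or 2-cell labels. All 12 egg markers, among them H1foo, Ooep and Btg4, had a level of at least 1 in all 7 groups, with summed levels between 18144 in C57BL/6J 2-cell embryos and 710929 in C57BL/6J MII eggs. Of 12 cumulus and granulosa markers, 4 to 8 were under a level of 1, or had no value, in a group, of 8 sperm and testis markers 4 to 6, and of 6 blood and endothelial markers 3 to 5. None of the 6 members overlapped another annotated gene in GENCODE M21.

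**Figure D1:**
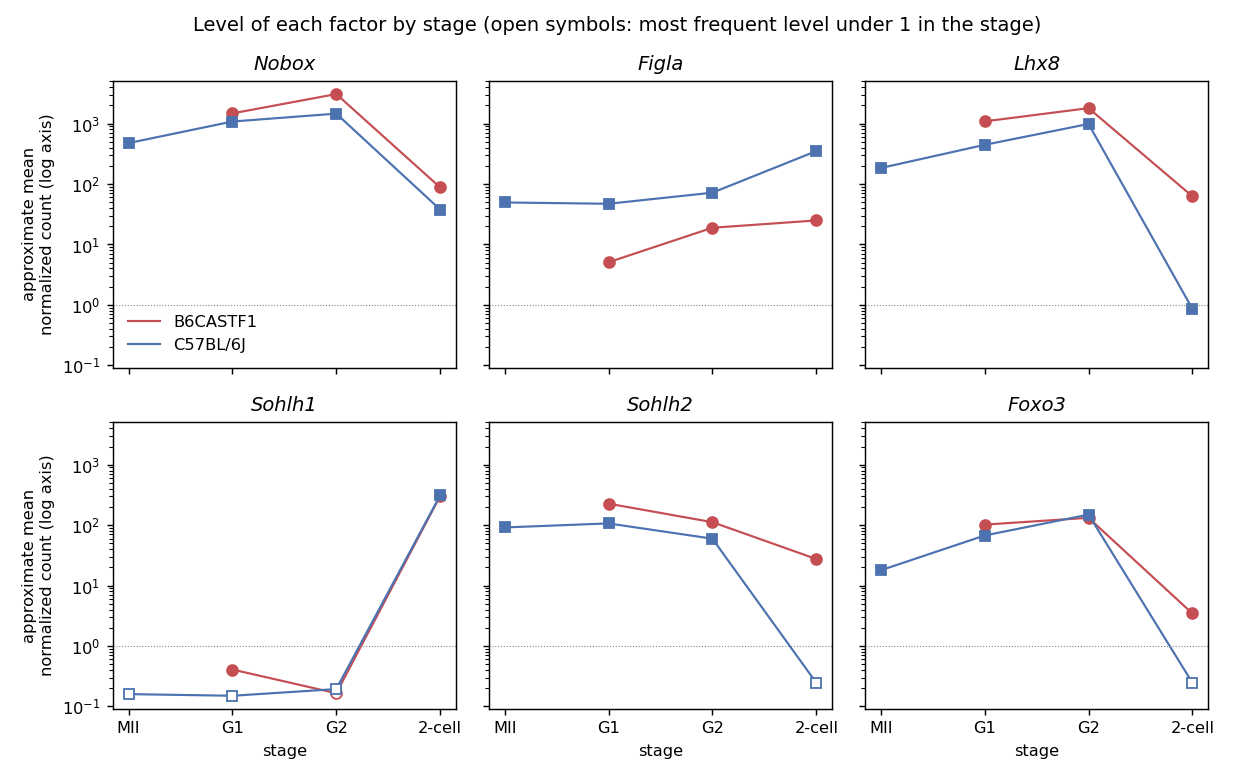
Approximate mean normalized count of each member (log axis) by stage, in B6CASTF1 (circles) and C57BL/6J (squares), with no value per sample and no error bars. Open symbols are at the most frequent level under 1 in that stage; Sohlh1 is near 0 until the G2 zygote and reaches 303 in B6CASTF1 and 310 in C57BL/6J 2-cell embryos, while Nobox, Lhx8 and Foxo3 are highest in G2 zygotes.

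Nobox (chromosome 6, 43303674 to 43309554, minus strand), an activator of the oocyte growth factor gene Gdf9, was the most abundant member per kb of transcript in zygotes of both strains. In B6CASTF1 its level was 1478 in G1 zygotes, 3084 in G2 zygotes and 87.8 in 2-cell embryos. Nobox rose in B6CASTF1 G2 zygotes over G1 zygotes, its log2 fold change being 1.06 (SE 0.28, adjusted p = 0.00197, DESeq2) in the authors' deposited table. It fell in 2-cell embryos, where the authors' deposited table has -5.13 for this value (SE 0.33, adjusted p = 9.98e-52, DESeq2), a level 35.1-fold below that of G2 zygotes. Nobox was the one member of 6 called at the G2 step in B6CASTF1, where 9.63% of 14668 tested genes rose, 9.63% fell and 19.3% changed in either direction.

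In C57BL/6J the level of Nobox was 476 in MII eggs, 1083 in G1 zygotes, 1464 in G2 zygotes and 37.8 in 2-cell embryos. Nobox had log2 fold changes of 1.19 (95% interval -0.78 to 3.15), 0.43 (-1.52 to 2.39) and -5.27 (-7.26 to -3.29) at the 3 steps in the authors' deposited tables, with no p. Among detected genes, 78 in B6CASTF1 and 1834 in C57BL/6J lacked a p in this way, and the tables do not say why. Without values per sample, the part of an extreme sample in the values of such genes was not tested. The order of the stages was the same as in B6CASTF1, but it was not tested in C57BL/6J.

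Lhx8 (chromosome 3, 154306294 to 154330659, minus strand), a LIM-homeodomain factor, followed Nobox in shape. Its level in B6CASTF1 was 1089 in G1 zygotes, 1804 in G2 zygotes and 62.6 in 2-cell embryos. In C57BL/6J it was 184 in MII eggs, 445 in G1 zygotes, 986 in G2 zygotes and 0.859 in 2-cell embryos. The neighbouring stages before the 2-cell embryo did not differ past the threshold in either strain: the log2 fold change at the G2 step was 0.73 (SE 0.40, adjusted p = 0.213, DESeq2) in B6CASTF1 and 1.15 (SE 0.51, adjusted p = 0.164, DESeq2) in C57BL/6J, in the authors' deposited tables. The step from MII eggs had 1.27 (SE 0.51, adjusted p = 0.229, DESeq2) in the authors' deposited table of C57BL/6J.

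Lhx8 fell in 2-cell embryos of both strains. Its log2 fold change was -4.85 (SE 0.46, adjusted p = 1.45e-24, DESeq2) in B6CASTF1, a level 28.8-fold below that of G2 zygotes, in the authors' deposited table. In C57BL/6J it was -10.17 (SE 1.14, adjusted p = 1.10e-17, DESeq2) in the authors' deposited table, with a 2-cell level under 1 normalized count, so no fold is given. The fall was smaller in B6CASTF1 than in C57BL/6J, and the log2 fold changes differed by 5.32 (SE 1.23, 95% interval 2.91 to 7.73, adjusted p = 3.05e-04 over 12573 genes, from the authors' DESeq2 fold changes and SE). With the C57BL/6J 2-cell level set to 3 normalized counts, the difference was 3.51. Of these 12573 genes, 11.6% were called with B6CASTF1 above C57BL/6J at this step, 5.03% below and 16.6% in either direction.

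Sohlh1 encodes the bHLH factor that acts above Lhx8 and Nobox in the mouse ovary and also works in spermatogonia. Its level in B6CASTF1 was 0.408 in G1 zygotes, 0.165 in G2 zygotes and 303 in 2-cell embryos. In C57BL/6J it was 0.160 in MII eggs, 0.150 in G1 zygotes, 0.193 in G2 zygotes and 310 in 2-cell embryos. The levels of G2 zygotes in both strains, and of MII eggs and G1 zygotes of C57BL/6J, were the most frequent ones under 1, shared to 2 decimals by 126 to 377 genes with a mean of at least 50. They were under 1 normalized count and are treated here as about 0 reads.

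Sohlh1 rose in 2-cell embryos of both strains, with 10.84 as its log2 fold change (SE 1.64, adjusted p = 1.84e-10, DESeq2) in B6CASTF1 and 10.65 (SE 2.25, adjusted p = 1.18e-05, DESeq2) in C57BL/6J, in the authors' deposited tables. The limit that 0 reads allow was taken as 3 normalized counts per library. The 2-cell level of Sohlh1 was 101-fold that limit in B6CASTF1 and 103-fold in C57BL/6J. These folds leave out the error of the 2-cell level and are no lower bound. The 95% intervals of the log2 fold change began at 7.62 in B6CASTF1 and at 6.23 in C57BL/6J. The fitted fold changes rest on levels under 1 and are no bound. Sohlh1 was 1 of 6 tested members that rose in B6CASTF1, where 33.1% of 16128 tested genes rose and 26.8% fell, and 1 of 4 in C57BL/6J, where 25.0% of 12839 rose and 25.3% fell. The steps before gave no call for Sohlh1, with adjusted p of 0.754 in B6CASTF1 and of 0.9995 and 0.982 in C57BL/6J (DESeq2), in the authors' deposited tables. The strains' rises differed by 0.20 (95% interval -5.27 to 5.66, adjusted p = 0.980 over 12573 genes, from the DESeq2 fits).

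Markers of other cells moved at the same step, and their part in the rise of Sohlh1 was not tested. The summed level of the 12 cumulus and granulosa markers was 1465 in 2-cell embryos and 1430 in G2 zygotes of B6CASTF1, and 302 in 2-cell embryos and 851 in G2 zygotes of C57BL/6J. Among them Amhr2, a receptor of anti-Mullerian hormone, had a level of 891 in 2-cell embryos against 0.594 in G2 zygotes of B6CASTF1, and 286 in 2-cell embryos against 0.193 in G2 zygotes of C57BL/6J. Cyp19a1, the aromatase, went the other way, with 24.5 in 2-cell embryos and 1338 in G2 zygotes of B6CASTF1, and 4.05 in 2-cell embryos and 809.7 in G2 zygotes of C57BL/6J. Fshr, the receptor of follicle-stimulating hormone, stood at 34.5 in 2-cell embryos and 49.7 in G2 zygotes of B6CASTF1, and at 0.243 in 2-cell embryos and 27.4 in G2 zygotes of C57BL/6J. Ptgs2 rose in B6CASTF1, with 203 in 2-cell embryos and 0.895 in G2 zygotes (log2 fold change 7.83, adjusted p = 7.62e-06, DESeq2). In C57BL/6J it was under a level of 1 in both stages. Tnfaip6, with no adjusted p, had 299 in 2-cell embryos and 7.498 in G2 zygotes of B6CASTF1. In C57BL/6J it had 8.087 and 5.699. In B6CASTF1 2 of the 5 tested markers of this list rose and 1 fell. In C57BL/6J 1 of 2 tested rose and 1 fell. The markers named here were picked after their values were seen. The 8 sperm and testis markers summed to 25.2 in 2-cell embryos and 148 in G2 zygotes of B6CASTF1, and to 116 and 189 in the same stages of C57BL/6J. The 6 blood and endothelial markers summed to 3603 in 2-cell embryos and 254 in G2 zygotes of B6CASTF1, and to 4300 in 2-cell embryos and 377 in G2 zygotes of C57BL/6J, most of it Hba-a1, a globin gene with a near-identical copy between which reads can be split, at 2858 in B6CASTF1 and 3827 in C57BL/6J 2-cell embryos. Pecam1, an endothelial marker, had 736 in 2-cell embryos and 235 in G2 zygotes of B6CASTF1 and passed the threshold there (log2 fold change 1.65, adjusted p = 7.66e-04, DESeq2, in the authors' deposited table), with 473 in 2-cell embryos and 296 in G2 zygotes of C57BL/6J. The leukocyte marker Ptprc was under a level of 1 in both stages of both strains.

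Sohlh2 (chromosome 3, 55182028 to 55209957, plus strand) encodes the bHLH partner with which SOHLH1 forms a pair. Its level was lower in 2-cell embryos than in G2 zygotes of both strains, but no fall was called. Its level in B6CASTF1 was 227 in G1 zygotes, 112 in G2 zygotes and 27.5 in 2-cell embryos. The log2 fold changes were -1.02 (SE 0.98, adjusted p = 0.555, DESeq2) at the G2 step and -2.03 (SE 1.11, adjusted p = 0.102, DESeq2) at the 2-cell step in the authors' deposited tables of B6CASTF1, neither past the threshold. In C57BL/6J the level was 91.5 in MII eggs, 107 in G1 zygotes, 59.7 in G2 zygotes and 0.246 in 2-cell embryos, the last being the most frequent level under 1 at that stage. C57BL/6J had no p for Sohlh2 at any step. The value of Sohlh2 at the 2-cell step there was -7.92 (SE 2.20) in the authors' deposited table. The G2 zygote level of C57BL/6J was 19.9-fold a limit of 3 normalized counts. This fold leaves out the error of that level and is no lower bound. Sohlh1 and Sohlh2 were together at a level of at least 1 in 1 of the 7 groups, the B6CASTF1 2-cell embryos.

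Figla (chromosome 6, 86016171 to 86020996, plus strand), the activator of zona pellucida genes, had wide intervals in both strains and passed no threshold. Its level in B6CASTF1 was 5.08 in G1 zygotes, 18.9 in G2 zygotes and 25.0 in 2-cell embryos. In C57BL/6J it was 49.5 in MII eggs, 47.2 in G1 zygotes, 71.9 in G2 zygotes and 351 in 2-cell embryos. At the 2-cell step the log2 fold change was 0.40 (95% interval -4.27 to 5.08, adjusted p = 0.897, DESeq2) in B6CASTF1 and 2.29 (95% interval -2.11 to 6.68, adjusted p = 0.409, DESeq2) in C57BL/6J, in the authors' deposited tables. Both intervals hold falls as well as rises, so the direction of Figla cannot be read from these tables.

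Foxo3 (chromosome 10, 42181841 to 42276755, minus strand) was measured in zygotes of both strains and fell to low levels in 2-cell embryos. Its level in B6CASTF1 was 102 in G1 zygotes, 132 in G2 zygotes and 3.45 in 2-cell embryos. In C57BL/6J it was 17.9 in MII eggs, 67.3 in G1 zygotes, 149 in G2 zygotes and 0.246 in 2-cell embryos, again the most frequent level under 1. Foxo3 fell at the 2-cell step in B6CASTF1, where its log2 fold change was -5.26 (SE 0.96, adjusted p = 1.58e-07, DESeq2), a level 38.4-fold below that of G2 zygotes, in the authors' deposited table. In C57BL/6J its value at that step was -9.25 (SE 1.54, adjusted p = 1.67e-08, DESeq2) in the authors' deposited table. The G2 zygote level there was 49.8-fold a limit of 3 normalized counts, without the error of that level. The values before the 2-cell step were 0.38 (95% interval -1.03 to 1.78) in B6CASTF1 and 1.91 (-0.08 to 3.90) and 1.15 (-0.81 to 3.11) in C57BL/6J in the authors' deposited tables, none past the threshold. The strains differed by 3.98 (SE 1.82, adjusted p = 0.122 over 12573 genes, from the DESeq2 fits) at the 2-cell step, which did not pass.

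**Figure D2:**
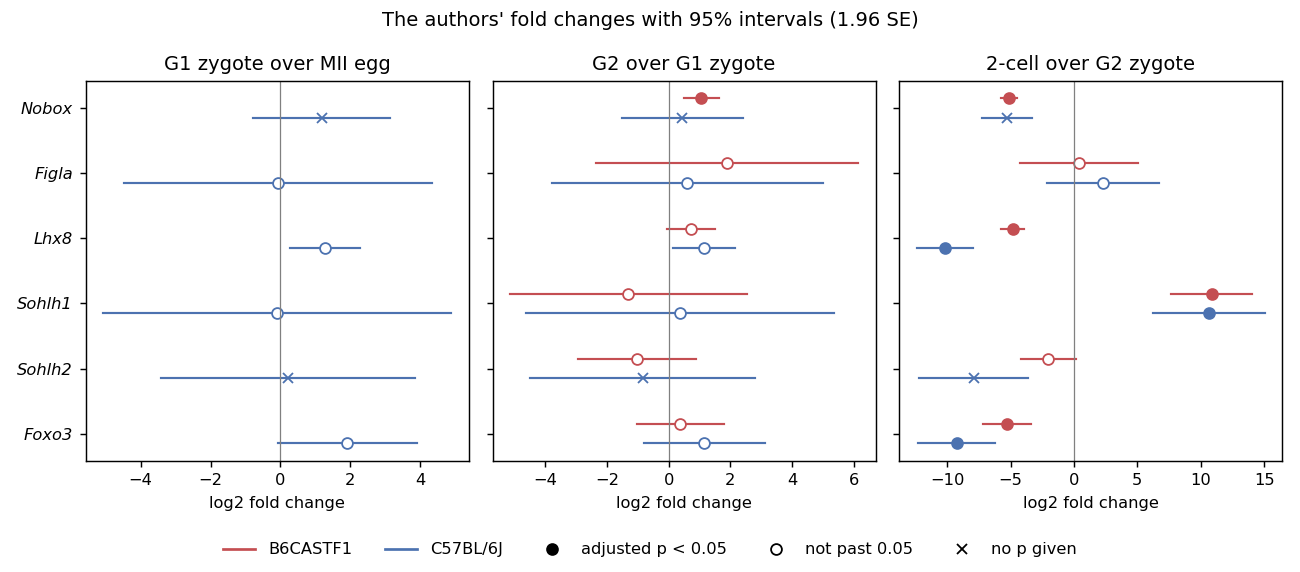
The authors' log2 fold changes of the 6 members at each step, with 95% intervals, in B6CASTF1 (upper line of each gene) and C57BL/6J (lower line); filled circles passed an adjusted p of 0.05, open circles did not and crosses have no p. At the 2-cell step Sohlh1 lies at 10.84 in B6CASTF1 and 10.65 in C57BL/6J, Nobox at -5.13 in B6CASTF1 and -5.27 in C57BL/6J, and Lhx8 at -4.85 in B6CASTF1 and -10.17 in C57BL/6J.

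At the 2-cell step 4 of 6 tested members changed in B6CASTF1: Nobox, Lhx8 and Foxo3 fell and Sohlh1 rose. In C57BL/6J 3 of 4 tested members changed, as Lhx8 and Foxo3 fell and Sohlh1 rose, while Nobox and Sohlh2 had no p. The shares of all tested genes that changed in either direction were 59.9% in B6CASTF1 and 50.4% in C57BL/6J, so a call at this step was common. The median log2 fold change of genes with a mean of at least 100 was itself 0.22 in B6CASTF1 and 0.20 in C57BL/6J at this step, and the calls held after recentring on it. At the first step, from MII eggs to G1 zygotes, 0 of 4 tested members changed, where 1.62% of 13551 tested genes rose, 1.12% fell and 2.75% changed in either direction. At the G2 step of C57BL/6J 0 of 4 changed (DESeq2 in both), where 5.01% of 13264 rose, 2.87% fell and 7.88% changed in either direction. At an unadjusted p under 0.05 Lhx8 was higher at both of these steps, with p of 0.0121 and 0.0232, in the authors' deposited tables.

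Over all measured stages, from the G1 zygote to the 2-cell embryo in B6CASTF1, the summed log2 changes were -4.07 for Nobox, -4.12 for Lhx8, -3.04 for Sohlh2, -4.89 for Foxo3 and 2.30 for Figla, and no sum is given for Sohlh1, whose G1 level was under 1. From the MII egg to the 2-cell embryo in C57BL/6J, the summed log2 change of Nobox was -3.65 and that of Figla 2.82. These sums span several steps of 1 fit and were not tested. The highest stage of Nobox, Lhx8 and Foxo3 was the G2 zygote in both strains. Per kb of the longest coding transcript, the levels in B6CASTF1 G2 zygotes ran in the order Nobox (1629), Lhx8 (869), Sohlh2 (47.4), Figla (24.9), Foxo3 (19.3) and Sohlh1 (0.128). In B6CASTF1 2-cell embryos the order per kb was Sohlh1 (235), Nobox (46.4), Figla (32.9), Lhx8 (30.2), Sohlh2 (11.6) and Foxo3 (0.503). In C57BL/6J 2-cell embryos it was Figla (462), Sohlh1 (241), Nobox (20.0), followed by Lhx8, Sohlh2 and Foxo3, whose levels under 1 normalized count give no order. These orders leave out the error of the levels and were not tested. The wide intervals of Figla leave its place and its sums uncertain.

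The strains differed most at the 2-cell stage, where low levels were more frequent in C57BL/6J. Among genes with a mean of at least 50, the 2-cell level was under 1 for 109 of 11269 in B6CASTF1 and for 795 of 10374 in C57BL/6J. Lhx8, Sohlh2 and Foxo3 were among those 795. The part of this difference in the larger falls of these genes in C57BL/6J was not tested, and strain and library batch cannot be told apart. Nobox, which kept a level of 37.8 in C57BL/6J 2-cell embryos, had changes that differed by 0.14 between the strains (95% interval -1.95 to 2.23, no p in C57BL/6J). At the G2 step 0 of 4 testable members differed between the strains, with adjusted p of 0.998 for each (from the DESeq2 fits, unadjusted p of 0.516 to 0.680), where 1.04% of 12517 genes were called with B6CASTF1 above C57BL/6J, 0.879% below and 1.92% in either direction.

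**Figure D3:**
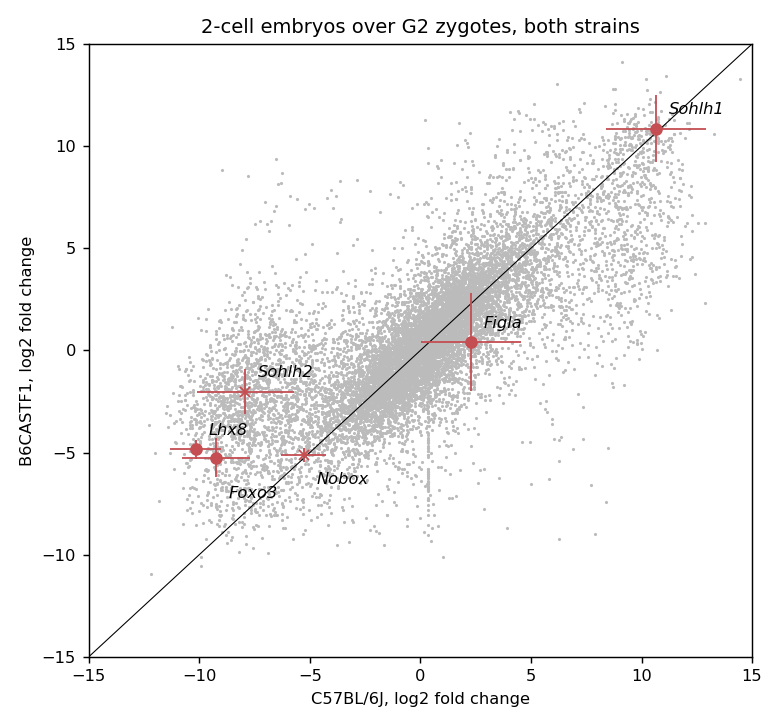
Log2 fold change of 2-cell embryos over G2 zygotes in B6CASTF1 (vertical) against C57BL/6J (horizontal) for 12573 genes tested in both strains (grey) and the 6 members (red, bars of 1 SE; crosses have no p in C57BL/6J); the line marks equal change. Sohlh1 and Nobox lie on the line, and Lhx8, Foxo3 and Sohlh2 lie above it.

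Genes near each member in pattern were taken as those with the smallest Euclidean distance over the 5 log2 fold changes, among 7237 genes with a mean of at least 100 in both strains. The distance takes no account of the SE, which was large for Figla. It includes fold changes fitted from levels under 1, of Lhx8, Foxo3 and Sohlh2 in C57BL/6J 2-cell embryos and of Sohlh1 before that stage. Shared low levels can make such genes near, so the distances are a description only. Lhx8 and Foxo3 had the same nearest gene, Gnb5, a G protein subunit (distances 0.57 and 1.23), and Lhx8 itself was the second nearest to Foxo3 (1.24). Nearest to Nobox were C87977 (0.45), Cyp4a14 (0.59) and Gramd1c (0.74). Nearest to Sohlh1 were Spic, a transcription factor of the ETS family (1.42), Vimp (1.58) and Rab20 (1.81). Sohlh2 was nearest to Cdc42ep3 (0.59), Sec24d (0.70) and Slc24a3 (0.98), and Figla to Thumpd3 (0.82), Mbip (0.83) and Nkrf (0.90).

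Further factors used with Nobox, Figla, Lhx8 and Sohlh1 to turn mouse stem cells into oocyte-like cells are Stat3, Tbpl2, Dynll1 and Sub1. Of these 4, 3 fell and 1 rose at the 2-cell step in both strains. Of all tested genes, 26.8% fell and 33.1% rose at this step in B6CASTF1, and 25.3% fell and 25.0% rose in C57BL/6J. Tbpl2, the oocyte's own TBP-like initiation factor, fell, with -7.08 as its log2 fold change (SE 0.56, adjusted p = 5.79e-36, DESeq2) in B6CASTF1 in the authors' deposited table, with a level of 4.87 in 2-cell embryos against 660 in G2 zygotes. In C57BL/6J it had -9.64 (SE 1.11, adjusted p = 1.19e-16, DESeq2) in the authors' deposited table, with a 2-cell level of 0.860. Stat3 (-1.54 in B6CASTF1 and -2.04 in C57BL/6J) and Sub1 (-1.36 in B6CASTF1 and -1.91 in C57BL/6J) fell as well in the authors' deposited tables. Dynll1, a dynein light chain, rose by 2.61 (SE 0.17, adjusted p = 4.46e-53, DESeq2) in B6CASTF1 and 1.40 (SE 0.29, adjusted p = 6.40e-06, DESeq2) in C57BL/6J, in the authors' deposited tables. It also rose at the G2 step of both strains, while Stat3 fell there in B6CASTF1 (log2 fold change -0.98, adjusted p = 0.0141, DESeq2, in the authors' deposited table).

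Of 13 genes reported in mouse to depend on one of the factors in the ovary, 11 fell and 1 rose at the 2-cell step in B6CASTF1, with a median log2 fold change of -2.21 against 0.55 for all tested genes. In C57BL/6J 7 fell and 1 rose, with a median of -1.94 against 0.17. Of all tested genes, 26.8% fell at this step in B6CASTF1 and 25.3% in C57BL/6J. The fall with the smallest p was in B6CASTF1 that of Rfpl4, an oocyte RING-finger gene (-5.75, SE 0.17, adjusted p = 4.65e-236, DESeq2), and in C57BL/6J that of the growth factor gene Bmp15 (-4.01, SE 0.22, adjusted p = 4.35e-69, DESeq2), in the authors' deposited tables. Zp3, a zona pellucida gene and known target of FIGLA, rose in both strains (1.08, SE 0.17, in B6CASTF1 and 1.69, SE 0.29, in C57BL/6J, in the authors' deposited tables). The other zona genes of the list went the other way. In B6CASTF1 Zp1 (-2.09, SE 0.22) and Zp2 (-2.21, SE 0.16) fell. In C57BL/6J Zp2 fell (-1.87, adjusted p = 0.0333, DESeq2) and Zp1 did not pass (-0.29, adjusted p = 0.898, DESeq2). At the G2 step 8 fell and 0 rose in B6CASTF1, and 4 fell and 0 rose in C57BL/6J, and at the step from MII eggs to G1 zygotes 4 fell and 0 rose. The shares of all tested genes that fell were 9.63% at the G2 step in B6CASTF1, 2.87% at that step in C57BL/6J and 1.12% at the step from MII eggs. At the G2 step of B6CASTF1, Gdf9 fell, its log2 fold change being -3.57 (SE 0.17, adjusted p = 1.27e-89, DESeq2, in the authors' deposited table), where Nobox rose.

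Among 15 partners of bHLH and LIM factors, 14 were tested at the 2-cell step in B6CASTF1, of which 3 rose and 5 fell, with a median log2 fold change of 0.36. In C57BL/6J 12 were tested, of which 1 rose and 6 fell, with a median of -2.81. The medians of all tested genes were 0.55 in B6CASTF1 and 0.17 in C57BL/6J, and the calls, 8 of 14 in B6CASTF1 and 7 of 12 in C57BL/6J, were near the shares of all tested genes, 59.9% in B6CASTF1 and 50.4% in C57BL/6J. Some genes of the Id family, whose products bind bHLH proteins and keep them from DNA, were among those that rose, but not all. Id2 rose at this step in B6CASTF1 (3.02, SE 1.22, adjusted p = 0.0238, DESeq2) and in C57BL/6J (1.69, SE 0.56, adjusted p = 0.0070, DESeq2), in the authors' deposited tables. Id3 had a level of 1925 in 2-cell embryos and 27.2 in G2 zygotes of B6CASTF1 (log2 fold change 6.14, SE 0.95, adjusted p = 3.64e-10, DESeq2, in the authors' deposited table). In C57BL/6J Id3 did not pass at this step (1.52, SE 1.21, adjusted p = 0.294, DESeq2). Id4 did not pass in B6CASTF1 (adjusted p = 0.0752, DESeq2) and had no adjusted p in C57BL/6J. Id1 rose in B6CASTF1 (5.61, SE 1.08), and in C57BL/6J had 0.215 in 2-cell embryos and 3.36 in G2 zygotes, with no adjusted p. Id2 rose at the G2 step in B6CASTF1 (3.55, SE 1.10, adjusted p = 0.00963, DESeq2) and C57BL/6J (4.18, SE 0.57, adjusted p = 1.01e-10, DESeq2) in the authors' deposited tables. Lmo1, a LIM-only gene, fell at the 2-cell step in both strains (-2.11, SE 0.18, in B6CASTF1 and -2.89, SE 0.38, in C57BL/6J, in the authors' deposited tables). At the G2 step 2 rose and 1 fell in B6CASTF1, and 1 rose and 0 fell in C57BL/6J, while 0 changed from MII eggs to G1 zygotes. Of all tested genes, 19.3% changed in either direction at the G2 step in B6CASTF1 and 7.88% in C57BL/6J, and 2.75% at the step from MII eggs.

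The pathway above FOXO3, from KIT to AKT and mTOR with the other FOXO genes, had 24 genes, all tested at the 2-cell step in B6CASTF1, of which 5 rose and 7 fell (median log2 fold change 0.07). In C57BL/6J 4 rose and 4 fell of 21 tested (median -0.13). These shares lay below those of all tested genes, 59.9% in B6CASTF1 and 50.4% in C57BL/6J, as a description. Foxo1, another FOXO gene, fell in B6CASTF1 (-2.35, SE 0.21, adjusted p = 1.82e-27, DESeq2) and in C57BL/6J (-1.91, SE 0.59, adjusted p = 0.00383, DESeq2) in the authors' deposited tables. Pik3cb, a catalytic subunit of PI3-kinase, rose in B6CASTF1 (3.08, SE 0.38, adjusted p = 2.47e-15, DESeq2) in the authors' deposited table. It did not pass in C57BL/6J (1.15, SE 0.55, adjusted p = 0.0699, DESeq2). In C57BL/6J Rps6kb1, the S6 kinase, rose (1.99, SE 0.26, adjusted p = 2.27e-13, DESeq2) and Pik3r1, the regulatory subunit of PI3-kinase, fell (-2.05, SE 0.41, adjusted p = 3.88e-06, DESeq2) in the authors' deposited table. Rheb, the GTPase that activates mTOR, fell at the G2 step of both strains (adjusted p = 3.64e-06 in B6CASTF1 and 4.78e-04 in C57BL/6J, DESeq2, in the authors' deposited tables). At that step 2 rose and 2 fell in B6CASTF1, 0 rose and 1 fell in C57BL/6J, and 0 changed from MII eggs to G1 zygotes. The shares of all tested genes that changed in either direction were 19.3% and 7.88% at the G2 step of B6CASTF1 and C57BL/6J, and 2.75% from MII eggs.

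Of 14 genes known as targets of FOXO factors, 9 rose and 1 fell at the 2-cell step in B6CASTF1, with a median log2 fold change of 1.75 against 0.55 for all tested genes, while Foxo3 and Foxo1 fell. In C57BL/6J 4 rose and 0 fell of 9 tested, with a median of 1.35 against 0.17. Of all tested genes, 33.1% rose and 26.8% fell in B6CASTF1, and 25.0% rose and 25.3% fell in C57BL/6J. Bcl2l11, which encodes the cell death protein BIM, had a level of 5489 in 2-cell embryos and 285 in G2 zygotes of B6CASTF1 (log2 fold change 4.27, SE 0.30, adjusted p = 8.20e-45, DESeq2, in the authors' deposited table). Bnip3, a mitophagy receptor, rose in C57BL/6J (2.80, SE 0.34, adjusted p = 1.53e-15, DESeq2) and in B6CASTF1 (2.07, SE 0.20, adjusted p = 1.79e-23, DESeq2), in the authors' deposited tables. Cdkn1b, the cyclin-dependent kinase inhibitor p27, fell in B6CASTF1, with levels of 0.959 in 2-cell embryos and 18.8 in G2 zygotes (-4.29, SE 1.86, adjusted p = 0.0366, DESeq2, in the authors' deposited table). In C57BL/6J it had 28.2 in 2-cell embryos and 5.22 in G2 zygotes (2.44, SE 1.80), with no adjusted p. At the G2 step 0 rose and 2 fell in B6CASTF1, and 2 rose and 0 fell in C57BL/6J, while 0 of 9 changed from MII eggs to G1 zygotes. The shares of all tested genes at the G2 step were 9.63% in each direction in B6CASTF1, and 5.01% higher and 2.87% lower in C57BL/6J. At the step from MII eggs, 2.75% of all tested genes changed in either direction.

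**Figure D4:**
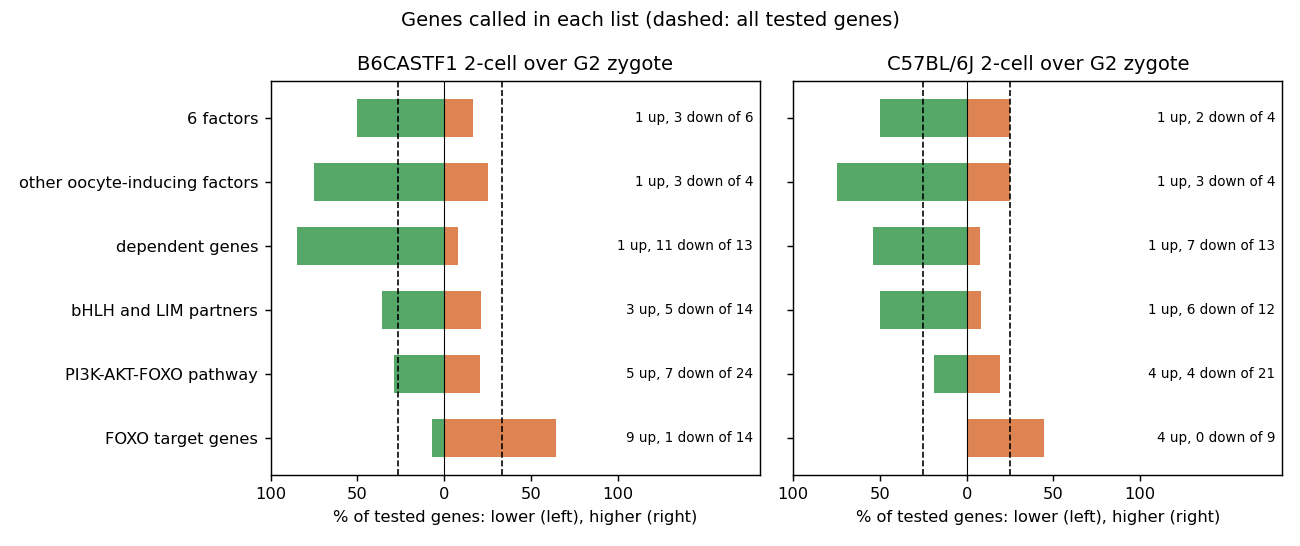
Share of tested genes called lower (left) and higher (right) at an adjusted p of 0.05 in 2-cell embryos over G2 zygotes, for the 6 members and 5 lists of related genes, in B6CASTF1 and C57BL/6J; dashed lines give the share of all tested genes. Genes that depend on the factors lie to the left, with 11 down and 1 up of 13 in B6CASTF1, and FOXO target genes to the right, with 9 up and 1 down of 14.

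The 3' end of the longest coding transcript was read for the cytoplasmic polyadenylation element, the signal by which stored egg RNA is given a longer poly(A) tail. In the last 150 nt of the 3' UTR, as TTTTAT or TTTTAAT on the transcript strand, Sohlh2 held 3 such elements and Nobox, Lhx8, Sohlh1 and Foxo3 held 0, as did the whole 3' UTR of Figla, which is 123 nt long. Of 10546 tested genes with a 3' UTR of at least that length, 25.7% held at least 1. The place of this window depends on the annotated end of each transcript.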

How the data were processed

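Per the labels' protocols, small batches of eggs and embryos went through Smart-seq2, in which oligo-dT primes the copying of poly(A) RNA. Per the submitters' processing notes, the authors' tools included kallisto, TopHat, bcl2fastq, DESeq2 and Picard and the build mm10, with no role stated for each. Per the file headers, the deposited signal is a mean normalized count over a strain's samples, beside a log2 fold change, its SE and a Wald statistic (a score), a p-value and adjusted p-value, and a shrunken log2 fold change. The file names give version 1.18.1 of the authors' DESeq2 for all 5 tables. It was checked that each strain's tables share 1 mean per gene.

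No test was run per sample, since the tables hold no values per sample. Changes are the authors' calls, and members left without a p were counted as not tested. Stage levels were computed from the strain's mean and its fold changes, weighted by samples per stage. The strain difference, B6CASTF1 minus C57BL/6J, was divided by the combined SE, with a two-sided normal p adjusted by Benjamini-Hochberg over all genes with an adjusted p in both strains, and was tested on simulated data. Intervals of 95% come from the SE. Gene positions, transcript lengths and 3' UTRs came from GENCODE M21 (GRCm38, the build mm10) and promoters from RefSeq, where all 6 members matched. All 6 members were named, and of each related list the called gene with the smallest p in each direction, with all 4 other oocyte-inducing factors. Amhr2, Cyp19a1, Fshr, Ptgs2, Tnfaip6, Hba-a1, Pecam1 and Ptprc, from the marker lists, were named after their values were seen. So were Zp1, Zp2, Id1 and Id4, from the related lists. The members and lists were chosen with earlier results of these data known. A further gene named by the rule for this group is not reported here. Alternatives were stricter thresholds, Bonferroni, no filter or a mean of at least 100, recentring, a larger SE and other weights. The tools were scipy 1.17.1, matplotlib 3.10.9, pandas 2.3.3 and numpy 2.4.6 under Python 3.11.15.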

Additional observations from a re-analysis of the deposited data

Results flagged for a closer look

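The fall of Lhx8 at the 2-cell step differed between the strains, with log2 fold changes 5.32 apart as B6CASTF1 minus C57BL/6J (SE 1.23, adjusted p = 3.05e-04 over 12573 genes, from the authors' DESeq2 fold changes), with -4.85 in B6CASTF1 and -10.17 in C57BL/6J. It was 1 of 4 members testable in both strains. Its level in 2-cell embryos was 62.6 in B6CASTF1 and 0.859 in C57BL/6J, and with the C57BL/6J level raised to 3 normalized counts the difference was 3.51. Strain and library batch cannot be told apart here.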

How the results depend on the processing

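Under the alternatives tried, the fold changes of members that had a p kept their side of the threshold after recentring. Of all 30 fold changes, with or without a p, 29 kept their direction. The exception was Figla, not called, at the step from MII eggs to G1 zygotes, with 0.0015 recentred against -0.07 as deposited, a shift that recentring makes by construction. The shrunken values kept the direction of all 30 and carry no call. The 18 B6CASTF1 levels moved by 0.751 to 1.12 times with the 2-cell group weighted as 3 samples. The call of Nobox at the G2 step of B6CASTF1 was lost, leaving 0 members, with Bonferroni and with an SE raised 1.5 times, both of which are stricter by construction. With a mean of at least 100, which leaves out Sohlh1 and Foxo3 in both strains, 2 members were called at the 2-cell step in B6CASTF1 and 1 in C57BL/6J. The strain difference of Lhx8 was lost, leaving 0 members, with Bonferroni and with an SE raised 1.5 times. Other counts of members and of list genes stayed within 1.5 times. Leaving out replicates was not run, as the tables hold no values per sample, and no paired analysis was possible because values are given per strain and comparison, not per sample, and the labels number no replicates. The precision was lowest for Sohlh1 and Figla, with SE of up to 2.54 and 2.39.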
